A study of Arabidopsis thaliana with 2 samples.

Results

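The VPS genes of Arabidopsis encode parts of the endosomal sorting machinery, and their transcripts were read in shoots of plants grown with or without NPA (N-1-naphthylphthalamic acid), an inhibitor of polar auxin transport. With earlier results of these data known, genes were chosen by name, by a symbol in the array's annotation beginning with VPS and a number. This gave 10 genes of the 13356 that could be read from a probe set with exactly 1 gene. By complex, 9 of the 10 belong to the ESCRT machinery and 1, VPS9B, to none of the complexes considered. No gene of the retromer, which recycles sorting receptors, or of the HOPS and CORVET tethers, which dock endosomes and vacuoles, was read under a VPS symbol, so these complexes had 0 members and were not analysed here. Of the 10 genes, 9 were measured, meaning that at least 1 array had a signal above its floor, and VPS24.2 was at the floor in both.

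The study compared 2 Affymetrix ATH1 arrays, in a series whose title concerns vascular overgrowth under NPA. Each was hybridised with biotin-labelled material prepared from total RNA of shoots of ecotype Col-0. The NPA plants grew on ATS agar medium with NPA dissolved in DMSO. The DMSO plants grew on the same medium with the solvent only. Both groups were stratified for at least 2 days, grown at about 20 C with 16 h of light, and harvested at about 2 weeks with about 6 rosette leaves, at stage 1.04. The labels disagree on the dose of NPA, with 10 uM in the sample description and 10 mM in the growth protocol, and which is right is not settled. Each group had 1 array. No difference below has a replicate check or a test, and the small number of arrays limits the precision throughout.

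Endosomes carry membrane proteins from the cell surface and the trans-Golgi network towards the vacuole. The ESCRT complexes bind ubiquitinated cargo and bud it into the lumen of the endosome, which becomes a multivesicular body. ESCRT-I and ESCRT-II gather the cargo and recruit ESCRT-III, whose subunits polymerise on the membrane and cut the vesicle neck, and the ATPase SKD1, the plant counterpart of yeast VPS4, takes the polymer apart. In Arabidopsis this route carries plasma membrane auxin carriers of the PIN family to the vacuole, and plants lacking both CHMP1 proteins missort them.

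Both arrays had been scaled to a common trimmed mean before deposit, and their median signals were 44.5 with NPA and 43.3 with DMSO. Signals up to 27.9 on the NPA array and 28.3 on the DMSO array were treated as at the floor. The 18 spike-in control probe sets, which read added control RNA rather than plant RNA, had log2 ratios of NPA over DMSO between -0.61 and 0.20 (SD 0.21). The ratio of 3' to 5' signal, a measure of RNA integrity, was 1.66 with NPA and 2.21 with DMSO for actin, 1.64 with NPA and 1.85 with DMSO for ubiquitin, and 0.803 with NPA and 0.893 with DMSO for GAPDH. An older design of these control probe sets gave 6.32 with NPA and 3.02 with DMSO for actin, 2.56 with NPA and 2.22 with DMSO for ubiquitin, and 1.45 with NPA and 2.08 with DMSO for GAPDH, so the arrays had no single order on this measure. Its part in the results below was not tested. Of 16 photosynthesis genes listed as shoot markers 5 were read, with signals of 2147 to 5105 with NPA and 3671 to 5597 with DMSO. All 5 were lower with NPA, with log2 ratios from -0.77 to -0.13 and a median of -0.27. Of all measured genes, 52.6% had a ratio below 0. What lies behind the lower marker signals was not tested. Of 3 read root markers, the beta-glucosidase gene PYK10 had 425 with NPA and 609 with DMSO, EXPA18 had 28.3 with NPA and 36.8 with DMSO, and EXPA7 was at the floor in both. No flower marker was read.

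**Figure D1:**
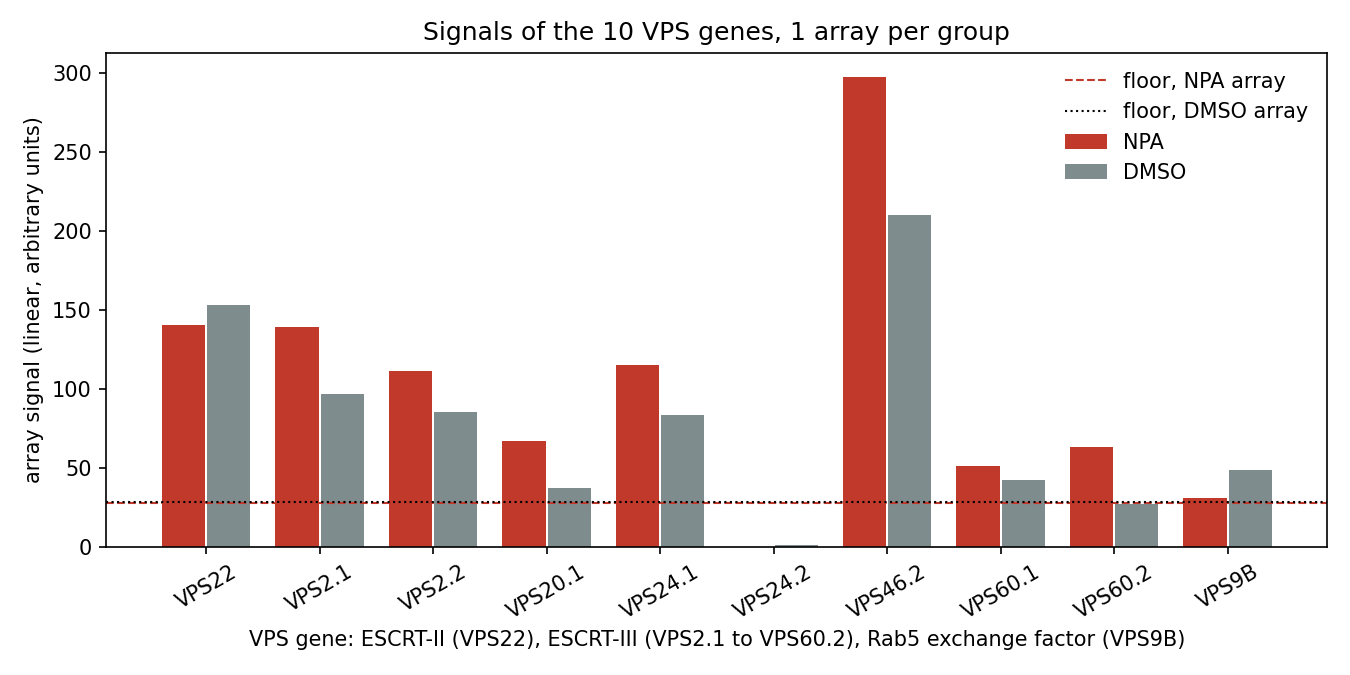
Array signal (linear, arbitrary units) of the 10 VPS genes, with the NPA array as the left bar and the DMSO array as the right bar of each pair, and the floor of each array as a horizontal line. Each bar is 1 array and has no error. The NPA bar is the taller one in 7 ESCRT-III genes, the DMSO bar in VPS22 and VPS9B, and VPS24.2 lies near 0. Bars of different genes come from different probes and are not to be compared.

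The ESCRT-III transcripts had higher signals with NPA, while the ESCRT-II transcript VPS22 was close to level and VPS9B was lower. Of 8 ESCRT-III genes with a VPS symbol, 7 were measured. All 6 that were above the floor in both arrays had a log2 ratio above 0, from 0.28 to 0.84. The direction of the other measured one, VPS60.2, was fixed by the filter. With its bound of 1.16 counted, the median was 0.50. Among all 7753 measured genes 47.4% had a log2 ratio above 0, the median was -0.03, and the 25th and 75th percentiles were -0.32 and 0.29. Few differences reached 2-fold. Of the 9 measured VPS genes, 1 was at least 2-fold higher with NPA, against 3.75% of all measured genes. None, 0 of 9, was at least 2-fold lower, against 2.13%. The median absolute log2 ratio was 0.50 for these 9 and 0.30 for all measured genes. The 1 gene at 2-fold, VPS60.2, was measured only through the NPA array, where it is the higher one. In whole shoots, fewer cells of a type and less RNA per cell cannot be told apart.

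VPS20.1 encodes the subunit that, in yeast, starts the ESCRT-III polymer after binding ESCRT-II. Its signal was 67.2 with NPA and 37.6 with DMSO, both above the floor. This is a log2 ratio of 0.84, or 1.79-fold, the largest among the VPS genes read above the floor in both arrays. Of all measured genes, 5.74% had a higher ratio. The DMSO signal of VPS20.1 was not far above its floor, and when the floor was set at the 55th percentile of each array the log2 ratio became a lower bound of 0.34.

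The polymer itself is made of SNF7 subunits, known in yeast as VPS32, which carry no VPS symbol in Arabidopsis. Both SNF7 genes were read as ESCRT partners from a list of names. SNF7.1 had 68.8 with NPA against 51 with DMSO, a log2 ratio of 0.43. SNF7.2 had 143 with NPA and 105 with DMSO, a log2 ratio of 0.44. The copies of SNF7 thus had nearly the same ratio, in the same direction as VPS20.1 and smaller.

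VPS24 and VPS2 cap the growing polymer and bring in the ATPase. VPS24.1 had a signal of 115 with NPA and 83.8 with DMSO, a log2 ratio of 0.46. VPS2.1 had 139 with NPA and 96.8 with DMSO, a log2 ratio of 0.53. VPS2.2, a paralog of VPS2.1, had 112 with NPA and 85.8 with DMSO, a log2 ratio of 0.38. All 3 genes were well above the floor on both arrays, between 1.30-fold and 1.44-fold higher with NPA. VPS24.2, the paralog of VPS24.1, had 0.232 with NPA and 1.56 with DMSO, far under both floors, and is given no fold. VPS24.1 was therefore the only copy of VPS24 read above the floor.

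VPS46 and VPS60 are accessory ESCRT-III subunits. VPS46.2, also known as CHMP1A, is a member of the CHMP1 pair needed for sorting of auxin carriers. Its signal was 298 with NPA and 210 with DMSO, both far above the floor. Its log2 ratio was 0.50, or 1.42-fold, and 14.2% of all measured genes had a higher one. None of the alternative floors brought this gene near its floor. Several of the 9 alternatives run for it thus left its log2 ratio unchanged by construction. The ratio lay between 0.45 and 0.51 under all 9. The other gene of the pair, VPS46.1, was not analysed here.

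VPS60.1 had 51.6 with NPA and 42.6 with DMSO, a log2 ratio of 0.28, the smallest among the measured ESCRT-III genes, and 25.7% of all measured genes had a ratio as high or higher. VPS60.2 had 63.3 with NPA and 27 with DMSO, just under the DMSO floor of 28.3, so it was at least 2.24-fold higher with NPA. The ratio of VPS60.2 thus lay above that of its paralog by a bound, from an unreplicated pair of arrays. Its call depended on how the floor was set. The log2 bound was 0.25 for a floor at the 55th percentile, and the log2 ratio was 0.72 when the floor was instead added to each signal. For a floor at the 25th percentile, which both signals exceeded, and for no floor, the log2 ratio was 1.23. Of all measured genes, 2.71% had a ratio higher than the bound of VPS60.2.

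**Figure D2:**
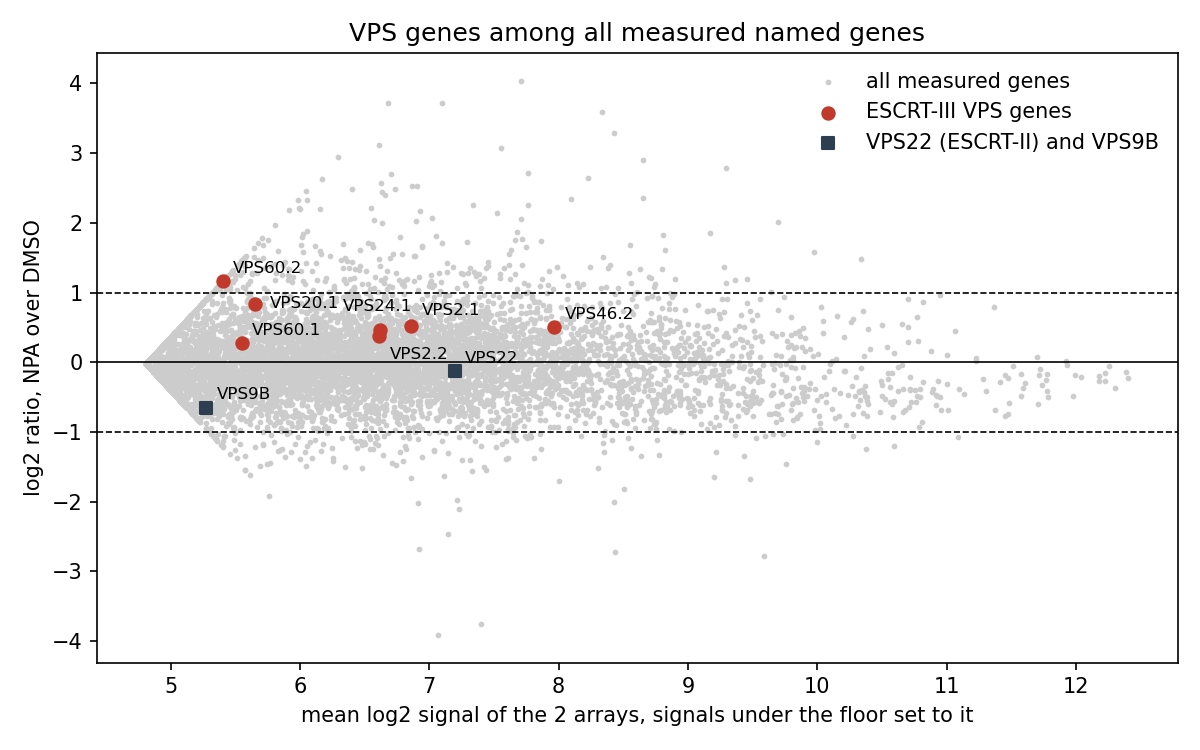
Log2 ratio of NPA over DMSO (vertical) against the mean log2 signal of both arrays (horizontal) for the 7753 measured genes in grey, the 7 measured ESCRT-III VPS genes as red circles, and VPS22 and VPS9B as dark squares. Dashed lines mark 2-fold in either direction. The red circles lie above 0 across dim and moderately bright signals, inside the cloud of all genes, and VPS60.2 sits on its edge because its DMSO signal is at the floor.

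Upstream of ESCRT-III the ratios were smaller and below 0. VPS22, an ESCRT-II subunit, had 140 with NPA and 153 with DMSO, a log2 ratio of -0.13. VPS36, another ESCRT-II subunit named on the array by its locus AT5G04920, had 112 with NPA and 132 with DMSO, a log2 ratio of -0.23. The ESCRT-I gene ELC, the Arabidopsis counterpart of VPS23, had 111 with NPA and 113 with DMSO, a log2 ratio of -0.03. VPS37-2, an ESCRT-I gene named by its locus AT2G36680, had 88.0 with NPA and 90.7 with DMSO, a log2 ratio of -0.04. All 4 genes lay between the 25th and 75th percentile of all measured genes, and the largest of these differences, that of VPS36, was 1.17-fold.

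Set side by side, 8 of 8 ESCRT-III genes above the floor in both arrays, with SNF7.1 and SNF7.2 counted, had log2 ratios above 0. They ranged from 0.28 to 0.84. The direction of VPS60.2, the other measured one, was fixed by the filter, and the median with its bound counted was 0.46. The 4 of 4 ESCRT-I and ESCRT-II genes had ratios below 0, with a median of -0.08. Of these, ELC at -0.03 and VPS37-2 at -0.04 lay next to the median of all measured genes, -0.03. Both were well within the spike-in SD of 0.21, so their signs carry little. Over all measured genes 52.6% had a ratio below 0. This grouping was made after the values were seen, and whether the subcomplexes differ was not tested, since each group has 1 array. The signs were the same under each of the 3 other scalings, median centring, quantile normalization and lowess centring. The ESCRT-III median was 0.47, 0.38 and 0.42 under them, and the ESCRT-I and ESCRT-II median was -0.08, -0.15 and -0.12.

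**Figure D3:**
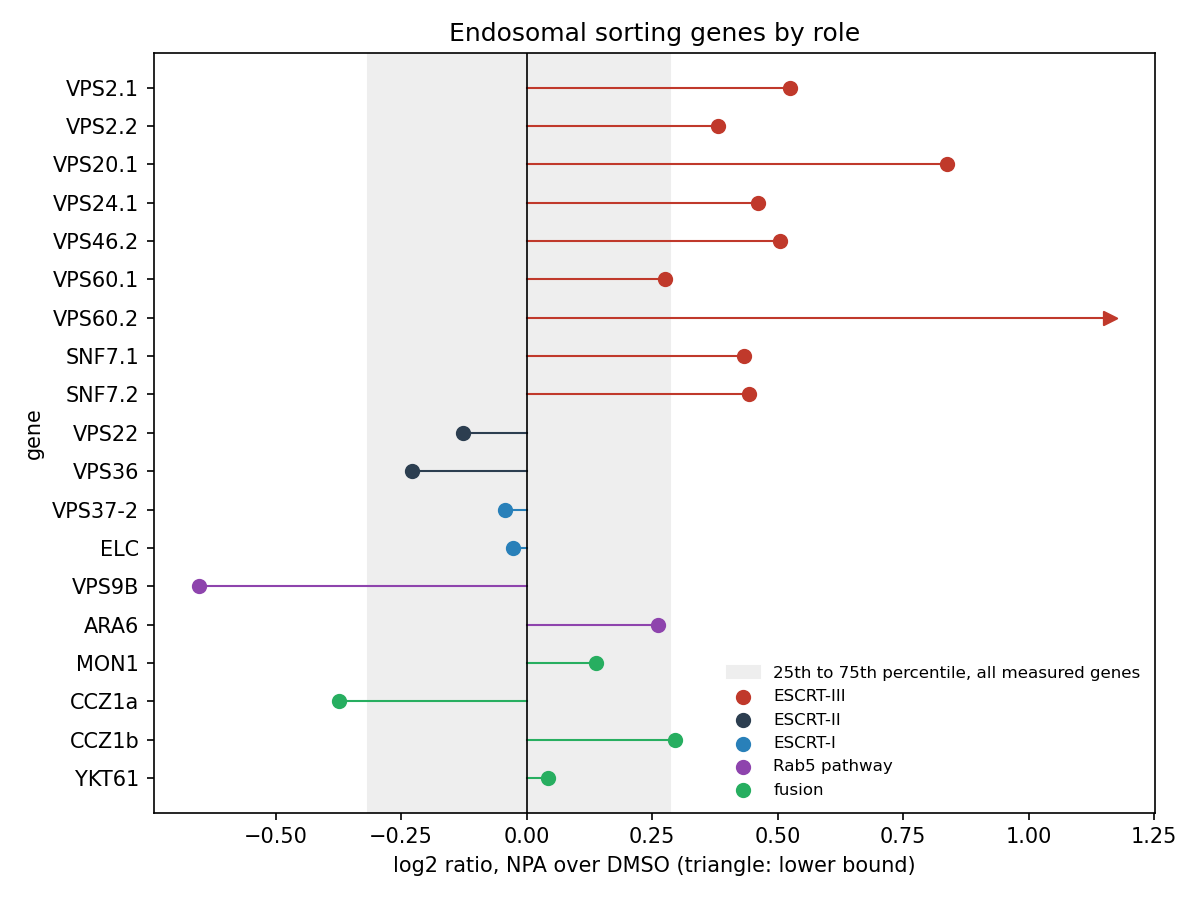
Log2 ratio of NPA over DMSO for 19 endosomal sorting genes, grouped by role from top to bottom, with the span from the 25th to the 75th percentile of all 7753 measured genes shaded. Points are single values with no error, and the triangle of VPS60.2 is a lower bound. ESCRT-III genes lie to the right of 0, from 0.28 upwards, ESCRT-II and ESCRT-I genes just left of 0, and VPS9B furthest left at -0.65.

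VPS9B is the member outside the ESCRT machinery. It is a paralog of VPS9A, the exchange factor that switches on Rab5 GTPases on endosomes. The signal of VPS9B was 30.9 with NPA, close to the floor, and 48.5 with DMSO, a log2 ratio of -0.65, or 1.57-fold lower with NPA. Of all measured genes, 8.20% had a lower ratio. At 1.5-fold it was the 1 VPS gene lower with NPA, against 10.6% of all measured genes, and 2 were higher, against 11.2%. For a floor at the 55th percentile VPS9B was at the floor in both arrays and had no ratio. The Rab5 GTPase ARA6 had 328 with NPA and 274 with DMSO, a log2 ratio of 0.26.

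Partners that act after Rab5 showed ratios in both directions. Of 8 measured partners in all, 0 reached 2-fold, against 3.75% of all measured genes higher with NPA and 2.13% lower. A count of 0 of 8 lies near those shares. MON1 and CCZ1 form the complex that exchanges Rab5 for Rab7 on the maturing endosome, and the array names their genes by the loci AT2G28390 (MON1), AT1G16020 (CCZ1a) and AT1G80910 (CCZ1b). MON1 had 120 with NPA and 109 with DMSO, a log2 ratio of 0.14. CCZ1a had 87.7 with NPA and 114 with DMSO, a log2 ratio of -0.37, and CCZ1b had 65.1 with NPA and 53 with DMSO, a log2 ratio of 0.30. The copies of CCZ1 thus had ratios of opposite sign, at 1.30-fold lower for CCZ1a and 1.23-fold higher for CCZ1b. YKT61, a SNARE of membrane fusion, had 435 with NPA and 422 with DMSO, a log2 ratio of 0.04. These are all the genes read among 26 names of tethering and fusion partners (4 read), 13 of PI3-kinase and GARP partners (1 read) and 26 of ESCRT partners (3 read). Of 13 names of retromer partners, 0 were read.

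Of the paralogs with a VPS symbol that share a number, which leaves out the SNF7 genes, 1 pair was above the floor in both arrays. In that pair, VPS2.1 and VPS2.2 differed by 1.44-fold and 1.30-fold between the arrays, both higher with NPA. VPS60.1 was 1.21-fold higher with NPA. VPS60.2 had a bound of at least 2.24-fold, but it was measured only through the NPA array, which fixes its direction, so this pair says nothing about shared direction. The third pair, VPS24.1 and VPS24.2, had 1 measured copy. Each VPS gene was read from 1 probe set, so none has a second reading on the same array, and none of these probe sets is shared with another named gene. Whether paralogous transcripts also bind them was not tested. The genes lie on all 5 chromosomes, with 5 of the 10, VPS2.2, VPS20.1, VPS24.1, VPS60.2 and VPS9B, on chromosome 5.

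**Figure D4:**
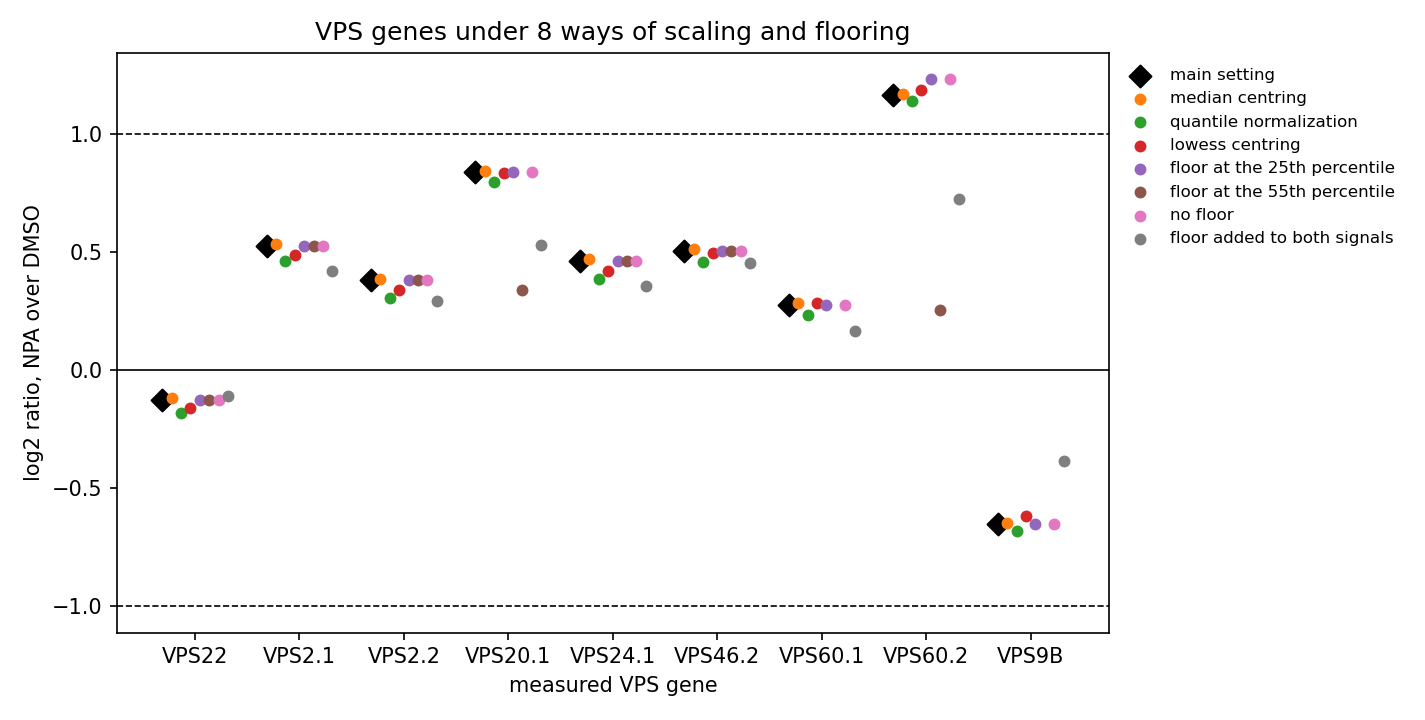
Log2 ratio of NPA over DMSO of the 9 measured VPS genes under the main setting (black diamonds) and 7 other ways of scaling the arrays or treating dim signals (coloured circles), with dashed lines at 2-fold. Each gene stays on its side of 0 wherever it could be read. The filter fixes that side for VPS60.2 wherever its DMSO signal is at the floor, and for VPS20.1 with a floor at the 55th percentile. Moving or dropping the floor returns the main value by construction for a gene above the main and the changed floor in both arrays. VPS20.1 and VPS60.2 come closer to 0 for a floor at the 55th percentile and when it is added to each signal, and VPS60.1 and VPS9B have no value at the 55th percentile.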

How the data were processed

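Each probe set has 1 deposited intensity value per array, on a linear scale, made with MAS5 and GCOS, per the submitters' processing notes. Of 22746 probe sets other than controls, 13513 have 1 gene in the array's annotation, 503 several and 8730 none. Where several such probe sets named 1 gene, the brightest was used. All 10 VPS genes matched the TAIR10.1 gene table, used for names and chromosome only. That table holds 40 genes with a VPS symbol or synonym; 14 were read, and the other 26 were not analysed here.

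Signals under an array's 40th percentile were set to that floor, and the log2 ratio of NPA over DMSO was taken. With 1 array at the floor the ratio is a lower bound, and with both no fold is given. Calls were made by a size rule of 2-fold, as 1 array per group allows no test. All measured VPS genes are named, with partners at 2-fold or up to 4 of each list by absolute log2 ratio. The members and lists were chosen with earlier results of these data known. VPS36 and VPS37-2 were added after their values were seen. The steps were run on simulated data with planted shifts larger than those of the VPS genes, in bright probe sets only. That run says nothing about small differences or dim genes. Software was numpy 2.4.6 and pandas 2.3.3 under Python 3.11.15, with lowess from statsmodels 0.14.6, trimmed means from scipy 1.17.1 and plots from matplotlib 3.10.9.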

Additional observations from a re-analysis of the deposited data

How the results depend on the processing

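The alternatives were 3 other scalings, a floor at the 25th or the 55th percentile, no floor at all, adding the floor to each signal, averaging the probe sets of a gene, leaving out shared probe sets, and a size rule of 1.5-fold. A value was taken to have moved when it shifted by more than the spike-in SD of 0.21, or a count by more than 1.5 times. Of 73 values of counts and medians, 67 moved little and 6 moved, and of 79 values of single VPS genes 74 moved little and 5 moved. The count of VPS genes at least 2-fold higher, 1, became 0 for a floor at the 55th percentile and 0 when the floor was added to each signal. In both, VPS60.2 came under 2-fold. The count became 2 with the 1.5-fold rule. Over all measured genes these settings gave, in that order, 205 of 5712, 174 of 7753 and 11.2%. The count at least 2-fold lower, 0, became 1 without a floor, where VPS24.2 enters with 2 very dim signals. It became 1 with the 1.5-fold rule too. Without a floor, 1340 of all 13356 genes were at least 2-fold lower, and 10.6% of measured genes were lower by the 1.5-fold rule. VPS9B, the only gene outside ESCRT, had a log2 ratio of -0.39 when the floor was added to each signal. The median of the measured VPS genes stayed between 0.35 and 0.47. The mean of probe sets and the exclusion of shared ones could not change the values of VPS genes, which have 1 unshared probe set each. Dropping the floor, or setting it at the 25th percentile, could not change the ratio of a gene above the main floor in both arrays. A floor at the 55th percentile could not change that of a gene above it in both. All these values are still counted above among those that moved little, so that count does not measure stability. No value could be given for retromer or HOPS and CORVET genes. No paired analysis was possible because each group has a single array, and for the same reason none could be left out. The causes of these shifts were not tested beyond what the settings fix by construction.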

Other observations

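The protein-coding genes on either side of each VPS gene were looked at after the other values had been seen. Of 20 such neighbours, 12 were not analysed here, 1 was at the floor in both arrays and 7 were measured. AT1G73040, beside VPS46.2, had a signal of 153 with NPA and 33.3 with DMSO, a log2 ratio of 2.2, while AT1G73020 on the other side had 46.9 with NPA and 50.4 with DMSO, a log2 ratio of -0.11. Beside VPS60.2, AT5G04840 had 33.2 with NPA and 33 with DMSO, a log2 ratio of 0.01. Around VPS60.1, AT3G10630 and NUP1, which encodes a nuclear pore protein, had log2 ratios of 0.01 and -0.15. AT4G27050, beside VPS22, had a log2 ratio of -0.75, and SCPL48, beside VPS24.2, had 0.52.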
